A study of Mus musculus with 24 samples.

Results

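Motile cilia genes are the 37 genes followed here through the lungs of IL-13 KO and wild-type mice treated with HDM or PBS. They encode the transcription factors of ciliated cells, the parts of the ciliary axoneme and the machinery that builds it. Each gene was represented by the array probe set annotated to that gene alone with the highest mean signal over the 12 samples. All 37 had such a probe set, of 18193 genes that did. A filter on low signal, set for the whole array, left 35 of the 37 and 14482 of all genes for testing. Spag17, a central apparatus protein, and Dnah11, an outer dynein arm heavy chain, lay under it with mean signals of 37.9 and 15.0. Tekt2 passed narrowly, with 34.3 on an array set whose limit was 33.9.

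The samples were total RNA of mouse lung in 4 groups of 3, IL-13 KO after HDM, IL-13 KO after PBS, wild type (WT) after HDM and WT after PBS. HDM usually stands for house dust mite, a source of inhaled allergens, and PBS for phosphate-buffered saline. KO mice lack interleukin 13, the type 2 cytokine that drives mucous change in airway epithelium. Each sample was read on a pair of arrays, set A and set B. The sources used here give no dose, route, schedule, strain background, age or sex. Nor do they state that replicates were different mice, so a p-value here reflects sample-to-sample spread, which may be technical. The comparisons ask what HDM did to the ciliary genes and whether this depended on IL-13.

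Motile cilia cover the ciliated cells of the conducting airways and beat to move mucus towards the throat. Each holds an axoneme of doublet microtubules around a central pair, with dynein arms as motors, radial spokes and a central apparatus as regulators, and tektins inside the doublets. Intraflagellar transport (IFT) carries the parts to the tip, and FOXJ1 with the RFX factors turns on the genes for all of these in cells that make many cilia.

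Signals of the lung samples fitted the tissue label, with a summed signal of 9 alveolar type 2 cell genes between 26915 and 33929 in every sample. The probe set of Il13 was under the filter, with 8.71 to 15.5 in KO after HDM, 3.30 to 9.45 in KO after PBS, 15.5 to 29.9 in WT after HDM and 4.65 to 12.1 in WT after PBS, so it does not check the genotype. Skeletal muscle RNA was present in 3 samples: Tnnc2, a muscle troponin, had 198 and 988 in WT HDM replicates 1 and 2 and 413 in WT PBS replicate 2, and at most 6.97 elsewhere. The actin 5'/3' signal ratio, a sign of RNA integrity, was low in KO after HDM (0.464 to 0.656 on set A), wholly below KO after PBS (0.748 to 0.854) and WT after HDM (0.695 to 0.832). It spanned 0.409 to 0.898 in WT after PBS. On set B it was 0.428 to 0.612 in KO after HDM, overlapping KO after PBS at one end (0.610 to 0.897) and below WT after HDM (0.643 to 0.851).

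In wild-type lung, HDM lowered part of the motile cilia genes and raised none. Of the 35 tested, 6 fell (17.1%), while 5.18% of all tested genes were called lower (limma, adjusted p under 0.05). These 6 were the microtubule-binding gene Tppp3, the IFT genes Ift88 and Ift172, the radial spoke genes Rsph1 and Rsph4a and the tektin gene Tekt4. The difference was below 0 in 30 of 35 members, against 50.3% of all genes, with a median of -0.39 on the log2 scale and a range of -1.27 to 0.43. The median over all genes was 0.00. At an unadjusted p under 0.05, 14 members were lower and 0 higher. Such a p was found for 6348 of the 31496 tested probe sets, in either direction. Every WT HDM sample was below every WT PBS sample in 13 members (37.1%), which held for 14.5% of all genes. Without the 2 samples with the lowest actin ratio (WT PBS replicate 2 and KO HDM replicate 1), the count of 6 was 4. This alternative was chosen after seeing the data. In it Tekt4, Rsph4a and Ift172 lost their calls (adjusted p = 0.0886, 0.0952 and 0.134, limma), while Ccdc39 gained one (0.0488). The count was 2 without WT HDM replicate 1. Leaving out the 3 samples with muscle RNA leaves a single WT HDM sample, so only effect sizes are given here. In that fit Tekt4, Rsph1, Rsph4a, Ift88 and Ift172 were at -0.69, -0.78, -0.46, -0.70 and -0.92. These values do not show that the calls held. In whole lung, fewer ciliated cells and less RNA per cell cannot be told apart.

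**Figure D1:**
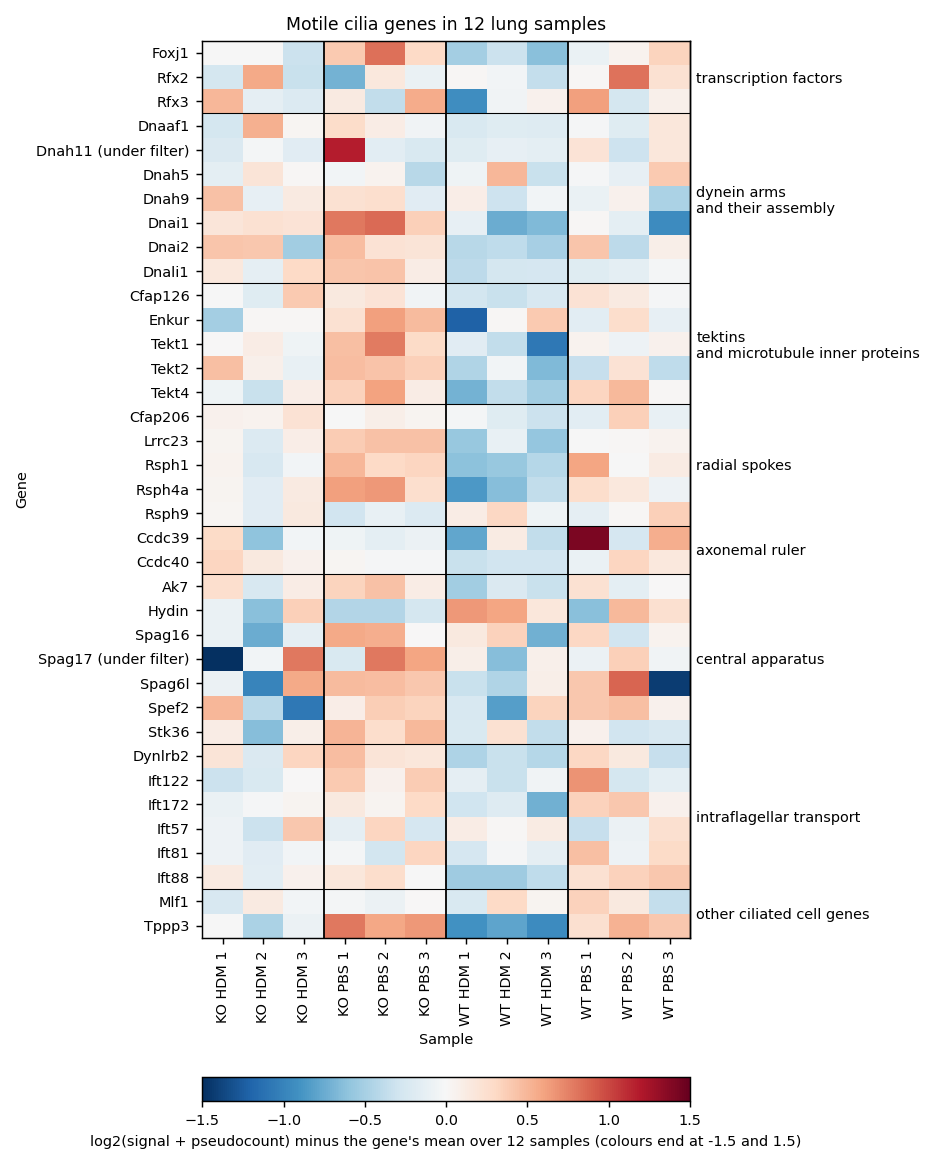
Log2(signal + pseudocount) of the 37 motile cilia genes (rows, grouped by role) in 12 samples (columns, by group), each as the deviation from the gene's own mean over the samples. WT HDM columns are mostly blue, with 6 to 9 of the 35 tested genes above their own mean, against 20 to 22 in WT PBS, and KO PBS columns are mostly red, with 24 to 28.

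Promoters of members that fell in wild type are shown because RFX factors, which are members themselves, act through a known motif. They bind the X-box, an imperfect inverted repeat whose half-site can be read as GTTGCC. It was searched on both strands, so that it also appears as GGCAAC. RefSeq's table for GRCm38.p6, which holds 250 bases before to 50 after each start, had 30 of the 37 members, the other 7 being Foxj1, Rsph1, Rsph4a, Tppp3, Ift122, Ift81 and Dnaaf1. The half-site letters stood in a promoter of 18 of these 30 genes (60.0%) and of 14.1% of the 27025 genes in the table. The 18 came from every role but the axonemal ruler and included Rfx2, Rfx3, Dnai2, Tekt1, Tekt2, Lrrc23, Hydin and Dynlrb2. Of the 6 called genes, Ift88, Ift172 and Tekt4 had a promoter in the table, and each held the half-site once. They are shown with those of Rfx2 and Rfx3, whose products bind such sites, with the half-site in capitals.
Ift88, chr14:57423821-57424120, + strand: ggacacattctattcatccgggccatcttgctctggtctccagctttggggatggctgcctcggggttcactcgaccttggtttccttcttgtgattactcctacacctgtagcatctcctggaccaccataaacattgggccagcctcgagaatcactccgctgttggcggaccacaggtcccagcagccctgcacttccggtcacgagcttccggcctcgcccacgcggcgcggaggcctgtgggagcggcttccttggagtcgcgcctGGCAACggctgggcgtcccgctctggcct
Ift172, chr5:31291065-31291364, - strand: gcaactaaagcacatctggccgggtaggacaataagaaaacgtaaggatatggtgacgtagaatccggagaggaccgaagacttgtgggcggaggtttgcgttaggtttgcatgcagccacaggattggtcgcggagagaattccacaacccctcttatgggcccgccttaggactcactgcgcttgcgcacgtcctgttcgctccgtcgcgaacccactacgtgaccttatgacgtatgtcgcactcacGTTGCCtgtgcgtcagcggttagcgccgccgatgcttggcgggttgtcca
Tekt4, chr17:25471340-25471639, + strand: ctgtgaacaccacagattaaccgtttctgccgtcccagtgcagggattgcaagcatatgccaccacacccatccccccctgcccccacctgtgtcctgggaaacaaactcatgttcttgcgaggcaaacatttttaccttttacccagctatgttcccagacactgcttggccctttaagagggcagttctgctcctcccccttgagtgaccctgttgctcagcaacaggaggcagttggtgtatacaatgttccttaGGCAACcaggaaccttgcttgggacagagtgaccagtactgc
Rfx2, chr17:56830959-56831258, - strand: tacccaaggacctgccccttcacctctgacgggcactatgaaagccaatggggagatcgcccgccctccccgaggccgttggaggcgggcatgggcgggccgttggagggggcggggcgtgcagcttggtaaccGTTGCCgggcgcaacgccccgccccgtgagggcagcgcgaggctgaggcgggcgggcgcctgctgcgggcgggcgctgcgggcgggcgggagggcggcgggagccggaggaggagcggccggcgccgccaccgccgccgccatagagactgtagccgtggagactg
Rfx3, chr19:28011117-28011416, - strand: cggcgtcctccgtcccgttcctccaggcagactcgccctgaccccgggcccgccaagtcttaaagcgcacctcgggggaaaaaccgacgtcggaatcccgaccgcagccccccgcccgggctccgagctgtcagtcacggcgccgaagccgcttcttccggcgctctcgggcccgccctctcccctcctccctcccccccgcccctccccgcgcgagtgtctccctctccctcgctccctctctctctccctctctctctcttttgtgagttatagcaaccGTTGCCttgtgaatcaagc
The first base of the half-site lay 21 bases after the start in Ift88, at the start in Ift172 (0 bases), 8 after it in Tekt4, 116 before it in Rfx2 and 31 after it in Rfx3. Also on both strands, the letters GTTGCCA, which contain the half-site, were in 5 of 30 members (16.7%) and 5.02% of all genes in the table. A looser form, GTTNCCA, which overlaps both, was in 15 members (50%) and 18.8% of all. For the whole X-box only 1 rigid form was searched, a symmetric repeat with a spacer of fixed length, and it was in 0 of 30 and 0.529%. Imperfect repeats and other spacer lengths were not searched, so this count does not show that the members lack an X-box. A forkhead motif, TGTTTAC, as FOXJ1-type factors bind, was in 2 of 30 (6.67%) and 4.05%. The general promoter motif CCAAT was in 11 (36.7%) and 41.1%. These are matches of letters within the window, chosen with the genes' results known, and were not tested.

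Tppp3, which encodes a tubulin polymerization-promoting protein found in ciliated cells, fell furthest (probe set 1416713_at). Its signal was 418, 453 and 407 in WT HDM lungs, against 933, 1137 and 1044 in WT PBS lungs. The groups were far apart, with a mean after HDM 58.9% below that after PBS. The log2 difference was -1.27 ± 0.13 (SE, adjusted p = 0.000115, limma), and it was called in 24 of 24 alternative settings.

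Among the IFT genes, HDM lowered 2 of 6 in wild type, both of the IFT-B complex that carries cargo outward. Ift88 (1448652_at) had 55.5, 55.4 and 62.6 in WT HDM lungs, against 99.2, 108 and 113 in WT PBS lungs. All 3 HDM samples lay well below the PBS samples (-0.81 ± 0.16, adjusted p = 0.00986, limma). Ift172 (1423068_at) had 106, 114 and 77.2 in WT HDM lungs, against 168, 176 and 138 in WT PBS lungs (-0.67 ± 0.17, adjusted p = 0.0320). It did not overlap either, but the call was lost with the replicate block (adjusted p = 0.0516) and without WT HDM replicate 1 (0.0517) or 3 (0.124), or WT PBS replicate 1 (0.0901) or 2 (0.104). Dynlrb2, a light chain of the dynein that returns IFT trains, had 1026, 1122 and 1057 in WT HDM lungs, against 1765, 1569 and 1116 in WT PBS lungs. One PBS sample sat among the HDM values, and it was not called (-0.44 ± 0.18, adjusted p = 0.167) unless that sample, replicate 3, was left out (0.0396). The IFT-B genes Ift81 (-0.35 ± 0.19) and Ift57 (0.15 ± 0.22) and the IFT-A gene Ift122 (-0.26 ± 0.22) were not called.

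Radial spokes, which relay signals to the dynein arms, had 2 of 5 genes lower. Rsph1 (1417643_at), a spoke head protein, had 59.4, 61.8 and 68.8 in WT HDM lungs, against 147, 94.0 and 104 in WT PBS lungs. The groups stood apart, with the PBS samples spread more widely (-0.77 ± 0.19, adjusted p = 0.0249, limma). Rsph4a (1444270_at), also of the spoke head, had 82.6, 97.7 and 121 in WT HDM lungs, against 193, 178 and 150 in WT PBS lungs (-0.74 ± 0.18, adjusted p = 0.0238). Both calls depended on the setting. That of Rsph1 was lost without WT HDM replicate 1 (adjusted p = 0.0719), 2 (0.0699) or 3 (0.0522) or WT PBS replicate 1 (0.0872), and that of Rsph4a without WT HDM replicate 1 (0.0825) or 2 (0.0659) or WT PBS replicate 1 (0.0801) or 2 (0.0685). With all samples, the Rsph4a call was lost when the array sets were fitted separately (0.0732). Lrrc23, another spoke component, had 130, 180 and 128 in WT HDM lungs, against 195, 198 and 204 in WT PBS lungs, where samples were close together. It was not called (-0.45 ± 0.15, adjusted p = 0.100), but was with the array sets fitted separately (0.0440) and without WT HDM replicate 2 (0.0326). Cfap206 (-0.21 ± 0.15) and the spoke head gene Rsph9 (0.04 ± 0.18) were not called either.

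Of the 5 genes for proteins inside the doublets, HDM lowered Tekt4 in wild type. Tekt4 (1453121_at) had 117, 151 and 135 in WT HDM lungs, against 250, 283 and 202 in WT PBS lungs. The highest HDM value was well under the lowest PBS value (-0.81 ± 0.18, adjusted p = 0.0153, limma), and the call was lost without WT HDM replicate 1 (0.0563) or WT PBS replicate 2 (0.0623). Tekt1 had 43.3, 36.8 and 19.9 in WT HDM lungs and 51.9, 46.9 and 52.4 in WT PBS lungs, not overlapping and not called (-0.56 ± 0.25, adjusted p = 0.226). Cfap126, known as Flattop, was at -0.40 ± 0.14 (adjusted p = 0.119), and Enkur and Tekt2 were at -0.26 and -0.21.

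The transcription factors were not called. Foxj1, the master regulator of motile ciliogenesis, had 121, 138 and 111 in WT HDM lungs, against 163, 182 and 222 in WT PBS lungs. The groups did not overlap, and the adjusted p was 0.0729 (-0.58 ± 0.18, limma). When the array sets were fitted separately, Foxj1 was called in WT, with an adjusted p of 0.0282. Rfx2 and Rfx3 were at -0.48 ± 0.30 and -0.45 ± 0.34.

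The ruler genes Ccdc39 and Ccdc40, whose products together set the axonemal repeat, were both below 0 and not called. Ccdc40 had 226, 234 and 233 in WT HDM lungs, against 266, 362 and 321 in WT PBS lungs (-0.43 ± 0.13, adjusted p = 0.0640, limma). Ccdc39 had 39.3, 82.8 and 55.7 in WT HDM lungs and 219, 61.5 and 115 in WT PBS lungs. These groups overlapped, and the PBS samples differed several-fold among themselves (-0.91 ± 0.38, adjusted p = 0.189). Ccdc40 was called with the mean of all probe sets per gene (0.0464) and without WT PBS replicate 1 (0.0256), and Ccdc39 without WT PBS replicate 2 (0.0462). Since Ccdc40 has 1 probe set, taking the mean left its difference at -0.43. That setting tested 20824 rows instead of 31496.

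Dynein arm and central apparatus genes had the role medians nearest 0 in wild type. None of the 6 tested dynein arm genes was called, with a median of -0.17 and a range of -0.47 (Dnai2) to 0.09 (Dnah9). The outer arm heavy chain Dnah5 was at -0.05 ± 0.25, the inner arm light chain Dnali1 at -0.19 ± 0.13 and the assembly factor Dnaaf1 at -0.19 ± 0.22. Dnai1, an outer arm intermediate chain, depended on the probe set. Its brightest one (1437094_x_at) was at -0.15 ± 0.26, while another (1437093_at) fell by 1.26 on the log2 scale (SE 0.31, adjusted p = 0.0264, limma). None of the 6 tested central apparatus genes was called, with a median of -0.15. The adenylate kinase Ak7 was at -0.39 ± 0.15, Spef2 at -0.55 ± 0.37, Spag16 at -0.10 ± 0.29, Spag6l at -0.19 ± 0.52 and the kinase Stk36 at 0.04 ± 0.22. Hydin, mutated in mice with hydrocephalus, had the highest difference of all members (0.43 ± 0.29, adjusted p = 0.457), with 353, 340 and 250 in WT HDM lungs and 139, 316 and 264 in WT PBS lungs. Mlf1 was at -0.01 ± 0.22. Without the filter, Dnah11 (-0.18 ± 0.33) and Spag17 (-0.23 ± 0.51) were not called.

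**Figure D2:**
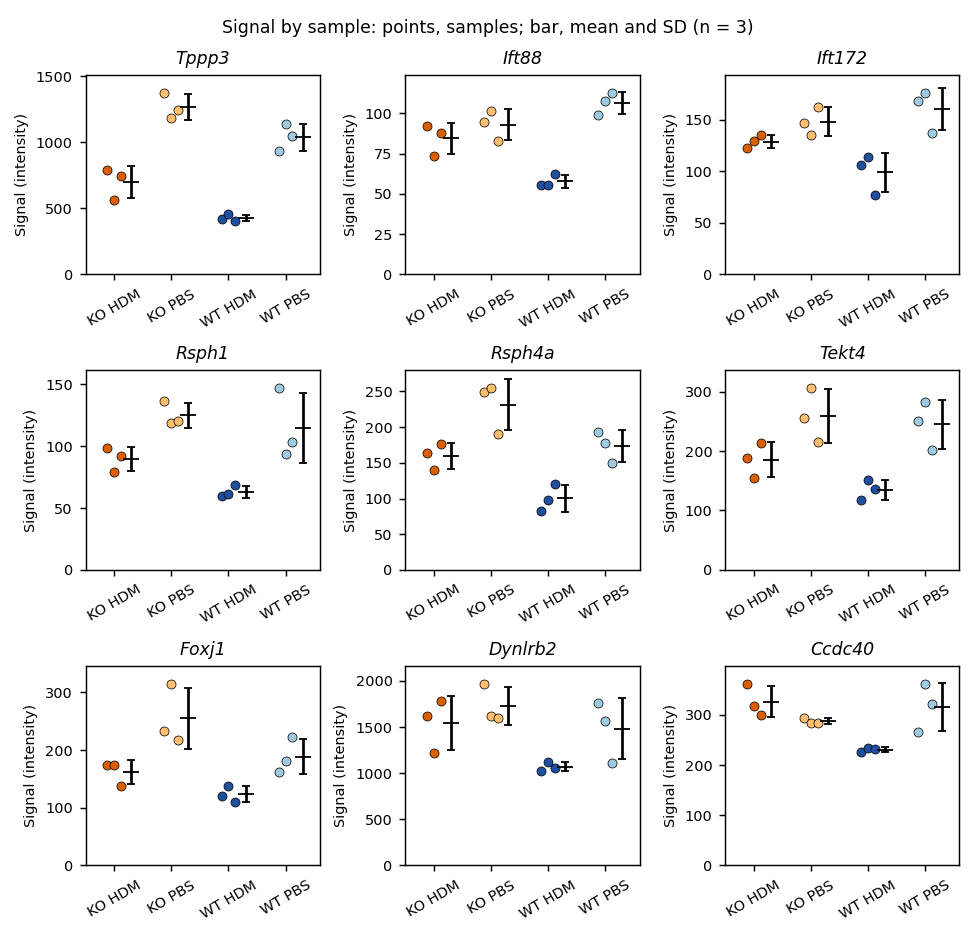
Signal (linear intensity, from 0) by sample for 9 motile cilia genes in KO HDM, KO PBS, WT HDM and WT PBS lung, with the mean and SD of 3 samples beside the points. In the top 6 panels all WT HDM samples lie below all WT PBS samples, as they do for Foxj1 and Ccdc40, while for Dynlrb2 they overlap.

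In IL-13 KO lung, HDM lowered 1 of 35 motile cilia genes, Tppp3, and raised 0. This was 2.86% of the members, against 5.33% of all genes called lower. The difference was below 0 in 27 of 35 members and in 49.1% of all genes, with a median of -0.19 against 0.01 over all genes. At an unadjusted p under 0.05, 8 members were lower. In either direction, 7159 of the 31496 tested probe sets had such a p. KO HDM samples lay wholly below KO PBS samples in 13 members (37.1%), and in 17.3% of all genes. Several settings raised the count of called genes to 2 or 3, with Foxj1 each time among those added. The actin ratio, lower after HDM than after PBS in KO, moved with these differences. Without the 2 samples with the lowest ratio Tppp3 was still called and the median was -0.28, and the ratio's part was otherwise not tested.

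Tppp3 had 788, 563 and 743 in KO HDM lungs, against 1375, 1186 and 1246 in KO PBS lungs. The groups were again well apart (-0.87 ± 0.13, adjusted p = 0.00189, limma), and this was called in 24 of 24 alternatives. Foxj1 had 175, 175 and 139 in KO HDM lungs, against 233, 315 and 217 in KO PBS lungs. It did not overlap and just missed the threshold (-0.62 ± 0.18, adjusted p = 0.0538). It was called in KO when the filter was set at the median (0.0424), with median scaling (0.0475), with the sets fitted separately (0.0193) and with the mean of all probe sets per gene (0.0443). Since Foxj1 has 1 probe set, taking the mean left its difference at -0.62.

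The other genes lowered in wild type were not called in KO. Ift88 had 92.4, 73.8 and 87.6 in KO HDM lungs and 94.9, 102 and 82.7 in KO PBS lungs, which overlapped (-0.13 ± 0.16, adjusted p = 0.704, limma). Ift172 had 122, 129 and 135 in KO HDM lungs and 147, 135 and 163 in KO PBS lungs, with the nearest samples almost equal (-0.19 ± 0.17, adjusted p = 0.565). Rsph4a had 164, 140 and 176 in KO HDM lungs, against 249, 255 and 190 in KO PBS lungs, not overlapping and not called (-0.50 ± 0.18, adjusted p = 0.107). Rsph1 (-0.45 ± 0.19) and Tekt4 (-0.45 ± 0.18) did not overlap either, with adjusted p of 0.171 and 0.149.

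By role, the tested spoke genes had a median of -0.44 in KO and -0.45 in WT, and the doublet proteins -0.45 in KO and -0.40 in WT. The IFT genes had -0.15 in KO and -0.40 in WT, and the dynein arm genes -0.10 in KO and -0.17 in WT. Central apparatus genes stood at -0.58 in KO and -0.15 in WT. The 3 transcription factors had -0.05 in KO and -0.48 in WT, and the 2 ruler genes 0.08 in KO and -0.67 in WT. These role medians were not tested against each other. Spag16 had 134, 81.9 and 130 in KO HDM lungs, against 220, 216 and 145 in KO PBS lungs (-0.70 ± 0.29, adjusted p = 0.169, limma), and Stk36 had 157, 89.1 and 155 in KO HDM lungs, against 211, 175 and 207 in KO PBS lungs (-0.56 ± 0.22, adjusted p = 0.153). Neither overlapped between the KO groups. Among members not yet named in KO, the lowest were Spag6l (-0.61 ± 0.52), Enkur (-0.60 ± 0.34), Spef2 (-0.59 ± 0.37), Tekt1 (-0.49 ± 0.25), Dnai1 (-0.46 ± 0.26), Ift122 (-0.46 ± 0.22) and Lrrc23 (-0.44 ± 0.15), and the highest were Hydin (0.25 ± 0.29), Rfx2 (0.21 ± 0.30) and Rsph9 (0.21 ± 0.18), with none called. The rest lay between -0.28 (Tekt2) and 0.17 (Ccdc40). A dimmer Stk36 probe set (1453584_at) pointed the other way (1.04 ± 0.51, not called). A dimmer probe set of Ift57 (1418929_at) fell in KO by 0.62 on the log2 scale (adjusted p = 0.0381), while the brightest was at 0.03 ± 0.22.

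**Figure D3:**
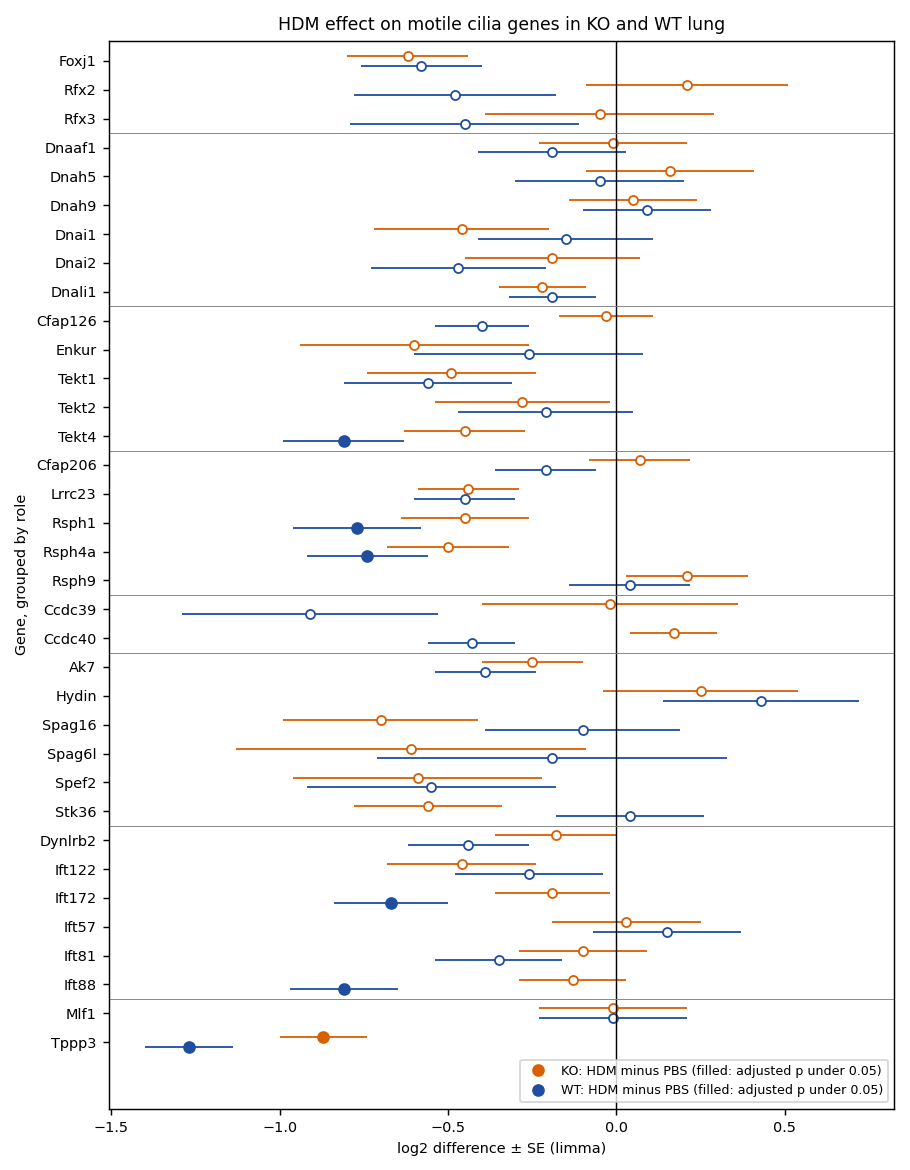
Log2 difference between HDM and PBS lung with its standard error (limma) for the 35 tested motile cilia genes, grouped by role, in KO (orange) and WT (blue). Filled points have an adjusted p under 0.05, 1 in KO and 6 in WT, and 27 points in KO and 30 in WT lie below 0.

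The difference between the genotypes in their response to HDM, tested as the KO effect minus the WT effect, was called for 0 of 35 members, and for 0.173% of all genes in either direction (limma). An unadjusted p under 0.05 was found for 1812 of the 31496 tested probe sets, in either direction. It was found for 2 of 35 members, both with a positive value. The first was Ccdc40 (0.60 ± 0.18, adjusted p = 0.640). Its KO samples had 361, 319 and 300 after HDM and 294, 284 and 284 after PBS, the one member wholly higher after HDM in KO, while its WT samples after HDM were all lower than those after PBS. The second was Ift88 (0.68 ± 0.23, adjusted p = 0.753). The calls of Ift88, Ift172, Rsph1, Rsph4a and Tekt4 in WT and not in KO therefore do not show that their response to HDM differed between the genotypes. The median over the members was 0.17, and 0.02 over all genes. It was 0.07 without KO PBS replicate 3 and 0.15 without the 2 samples with the lowest actin ratio. On set A that ratio did not overlap between HDM and PBS samples in KO, while it overlapped in WT.

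After HDM, KO lungs had more signal than WT lungs in 26 of 35 motile cilia genes, and in 53.6% of all genes. The median was 0.35, against 0.02 over all genes. Tppp3 was the one member called (0.69 ± 0.13, adjusted p = 0.0460, limma), where 0.193% of all genes were called higher. It had 788, 563 and 743 in KO HDM lungs, against 418, 453 and 407 in WT HDM lungs. This call was lost in 16 of 24 alternatives. They included the replicate block (adjusted p = 0.0985) and the omission of KO HDM replicate 1 (0.183) or 3 (0.220), WT HDM replicate 1 (0.129), 2 (0.113) or 3 (0.137), KO PBS replicate 1 (0.0634), 2 (0.0645) or 3 (0.0782), or WT PBS replicate 2 (0.0502) or 3 (0.0665). At an unadjusted p under 0.05, 14 members were higher and 0 lower. Such a p was found for 2708 of the 31496 tested probe sets, in either direction. KO HDM samples lay wholly above WT HDM samples in 14 members (40.0%), and in 9.62% of all genes. Among these were Ift88, Ift172, Rsph1, Rsph4a, Tekt4, Foxj1, Dynlrb2 and Ccdc40. Dynlrb2 had 1620, 1221 and 1786 in KO HDM lungs, against 1026, 1122 and 1057 in WT HDM lungs (0.51 ± 0.18, adjusted p = 0.399), with no overlap. The actin ratio given above also separated these groups, and its part in the difference was not tested. This comparison uses the WT HDM samples that also enter the HDM effect in WT.

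After PBS, 0 of 35 members were called between KO and WT lungs, with a smallest adjusted p of 0.417 (limma), against 0.0207% of all genes called in either direction. At an unadjusted p under 0.05, 7 members were higher in KO and 0 lower. In either direction, 2155 of the 31496 tested probe sets had such a p. KO PBS samples lay wholly above WT PBS samples in 7 members (20.0%), and in 6.57% of all genes. Dnai1 had the largest difference, with 178, 186 and 129 in KO PBS lungs, against 99.5, 88.3 and 46.0 in WT PBS lungs (1.02 ± 0.26, adjusted p = 0.417). Its other probe set was at 0.35 ± 0.31. Lrrc23 had 258, 268 and 269 in KO PBS lungs, against 195, 198 and 204 in WT PBS lungs, with little spread in either group (0.40 ± 0.15, adjusted p = 0.655). Foxj1 was at 0.41 ± 0.18 and overlapped. The median over members was 0.14, and 0.04 without WT PBS replicate 2. That sample had muscle RNA and also the lowest actin ratio on both array sets (0.409 on set A, 0.349 on set B). The part of either was not tested.

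Genes outside the 37 that belong to motile axonemes or ciliated cells were mostly below 0 after HDM, with few called. Of 72 tested in wild type, 6 fell (8.33%, against 5.18% of all genes) and 0 rose, 57 were below 0 and the median was -0.21. Zmynd10, a dynein arm assembly factor, had 73.6, 41.6 and 41.5 in KO HDM lungs and 7.31, 7.02 and 8.52 in WT HDM lungs, against 59.4, 29.9 and 22.5 in WT PBS lungs. The WT HDM values were near the pseudocount and far under the filter limits, so the size of its differences depended on the pseudocount. With a pseudocount of 1 or 32, tried for the genes outside the 37 after seeing the data, the HDM difference in WT was -2.04 or -0.77 (adjusted p = 0.00736 or 0.0393, limma). Zmynd10 was the one gene of the 72 called higher in KO than in WT after HDM (adjusted p = 0.0134), also with a pseudocount of 1 (0.0134) or 32 (0.0419), and its difference in HDM effect was not called (adjusted p = 0.608). The axonemal genes Cfap65 (-0.80) and Cfap161 (-0.79) also fell in WT, as did Cfap69 (-1.08, adjusted p = 0.0481), though not with a pseudocount of 1 (0.0593). In KO, 2 of 72 fell (2.78%, against 5.33% of all genes) and 0 rose, with a median of -0.19. These were Cdhr4, a cadherin-related gene (-0.73 ± 0.16, adjusted p = 0.0165), and Cfap65 (-0.72 ± 0.20, adjusted p = 0.0436).

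Regulators of multiciliogenesis and centriole amplification, which act upstream of the axoneme, had 2 of 22 genes lower in WT after HDM (9.09%, against 5.18% of all genes). Foxn4, a forkhead factor of multiciliated cells known from Xenopus, had 14.8, 28.5 and 13.4 in WT HDM lungs, against 56.0, 66.0 and 87.2 in WT PBS lungs (adjusted p = 0.00674, limma). It was dim after HDM, and it was also called with a pseudocount of 1 (0.00848) or 32 (0.00801). Ccno, needed to amplify centrioles, had 122, 78.3 and 86.9 in WT HDM lungs, against 194, 214 and 242 in WT PBS lungs (-1.11 ± 0.23, adjusted p = 0.0113). Neither gene overlapped between the groups. In KO 0 of the 22 were called, and Ccno was at -0.66 ± 0.23 (adjusted p = 0.106). Genes that non-motile cilia also use were counted separately. Of 22 other IFT genes 0 were called in either genotype, with medians of -0.07 in KO and -0.12 in WT. Of 22 BBSome and primary cilium genes, 1 fell in KO (Ahi1, -0.97 ± 0.24, adjusted p = 0.0257) and 1 in WT (Bbs5, -1.56 ± 0.41, adjusted p = 0.0356), 4.55% in either genotype. The share of all genes called lower was 5.33% in KO and 5.18% in WT.

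Markers of other lung cells moved at the same time. Of all tested genes, 5.18% were called lower after HDM in WT and 5.33% in KO. Of the 31496 tested probe sets, 1233 were called higher in WT and 1361 in KO. In WT after HDM, 6 of 10 club cell genes fell and 1 rose, 7 of 10 alveolar type 1 genes fell, 8 of 10 endothelial genes fell and 1 rose, and 3 of 15 general epithelial genes fell. Of 9 alveolar type 2 genes 2 fell, and of 4 basal and neuroendocrine genes 0 were called. Of 9 goblet cell genes 8 rose, and of 11 leukocyte genes 9 rose. The summed signal of the leukocyte genes was 6588 to 8654 in WT HDM lungs, against 3151 to 3522 in WT PBS lungs, and that of the 35 motile cilia genes was 6401 to 6925 in WT HDM lungs, against 8294 to 9439 in WT PBS lungs. In KO, 4 club cell, 4 alveolar type 1, 7 endothelial and 4 general epithelial genes fell, while 2 club cell, 6 goblet cell and 6 leukocyte genes rose. The leukocyte sum was 7678 to 8542 in KO HDM lungs, against 4145 to 4660 in KO PBS lungs, and the motile cilia sum 7248 to 9150 in KO HDM lungs, against 9421 to 10580 in KO PBS lungs. The club cell sum was 21584 to 21752 in KO HDM lungs, against 21246 to 26979 in KO PBS lungs, and 15633 to 19162 in WT HDM lungs, against 23392 to 28439 in WT PBS lungs. No tested marker of these lists had a signal of 0 in any sample. The lowest signals were 0.875 (goblet cell) and 1.42 (skeletal muscle), under the pseudocounts. Signals that low do not show that a marker was detected. The 9 skeletal muscle genes summed to 404 to 6914 in WT HDM lungs and 327 to 3197 in WT PBS lungs, with 0 called. The part of these other cells in the ciliary differences was not tested.

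**Figure D4:**
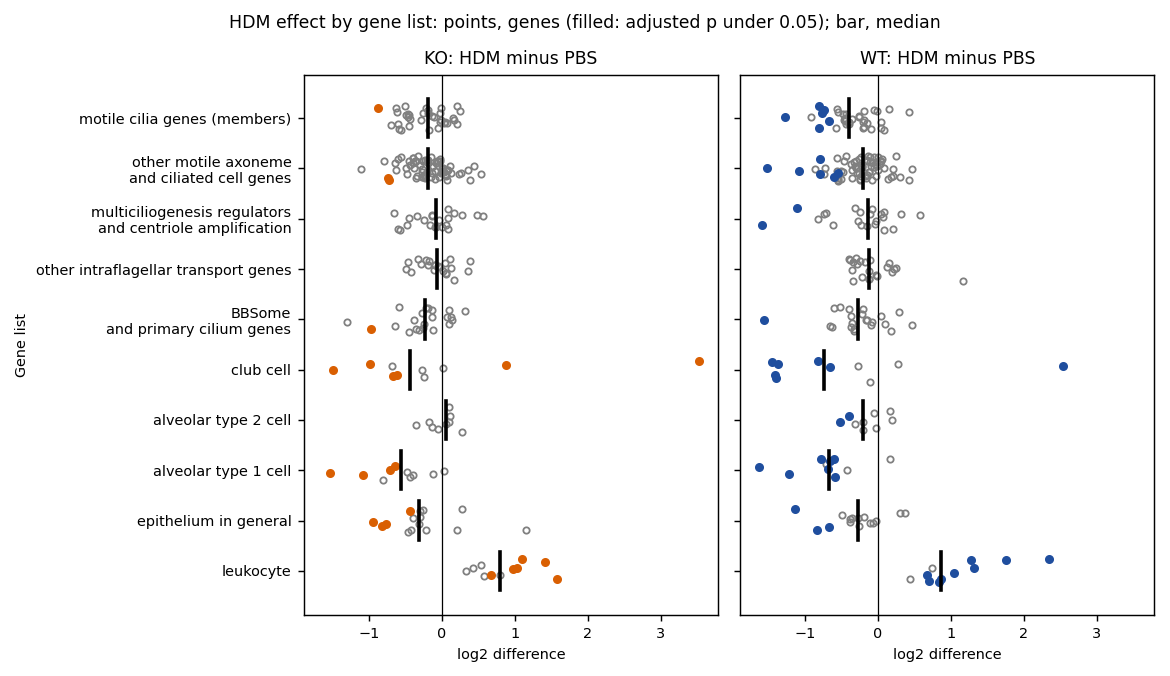
Log2 difference between HDM and PBS lung for the genes of each list (points, filled where the adjusted p was under 0.05) with the list's median (bar), in KO (left) and WT (right). The motile cilia genes have medians of -0.19 in KO and -0.39 in WT and the other axoneme genes -0.19 in KO and -0.21 in WT, while the leukocyte genes lie at 0.80 in KO and 0.87 in WT.

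The motile cilia genes differed in how closely they followed each other over the 12 samples. Pearson's r between 2 members had a median of 0.287 over 595 pairs, and 0.0856 once each group's mean was removed. Tekt4 (0.943), Tppp3 (0.931), Rsph4a (0.931) and Lrrc23 (0.922) followed the mean of the other members most closely. Rsph9 (-0.425) and Hydin (-0.578) ran against it. The 12 samples share arrays and scaling across genes and fall into the 4 groups, so these values are a description of the group pattern. Of 14447 other genes, those most like the members' mean were Abca3, the lipid transporter of alveolar type 2 cells (0.976), the sodium channel subunit Scnn1b (0.957), Hp (haptoglobin, 0.957), 2610028H24Rik (0.954) and Dcxr (0.951), followed by Thbs3, Wfdc2, Cfap161, Plet1 and Gadd45b (0.947 to 0.943). Of these 10, Cfap161 is the one in a ciliary list.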

How the data were processed

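Lung RNA of 12 samples was read on 24 arrays, with group, replicate and array set taken from the titles. Each deposited value was a probe set's linear intensity on an array. The authors had scaled every array to a common level, since its trimmed mean (2% off either end) was 150. The software behind the values is not given in the sources used here. No detection calls were used, so a dim probe set is not known to be detected. The number of arrays limits the precision. Set B arrays were matched to set A arrays by title.

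The log2 of each deposited intensity plus a pseudocount was analysed. The pseudocount was 7 (set A) or 11 (set B), that set's 10th percentile. This understates changes of dim genes. Probe sets whose mean signal was below their set's 30th percentile (33.9 and 43.4) were dropped, and 31496 were tested. limma 3.58.1 in R 4.3.3 fitted the 4 groups in one model (8 residual degrees of freedom, eBayes with intensity trend), with Benjamini-Hochberg adjustment at 0.05 over all of them, for 5 comparisons. The code was tested on simulated data. Genes were named through the platform annotation and matched to RefSeq, where Dnaic1 and Dnaic2 stand for Dnai1 and Dnai2. Gene-level background counts used each gene's brightest tested probe set. A probe set's level was not compared with that of another.

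Every member is described. From each other list, up to 4 called genes per comparison with the largest difference were eligible to be named, or 2 with the smallest p, and the 10 genes most correlated with the members. The members, lists and motifs were chosen with earlier results of these data known. The 24 alternatives covered the pseudocount, filter, scaling, trend, array sets, probe set choice, replicate block and samples left out. Deviations of same-numbered samples from their group means had r from -0.07 to 0.17. Differently numbered samples were not compared, so these values do not settle whether the numbers pair samples. The labels do not say that a number marks a shared litter, batch or day, so no pairing was used.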

Additional observations from a re-analysis of the deposited data

How the results depend on the processing

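No called difference of a motile cilia gene, and no median over the members, reversed its direction under any of the 24 alternatives. In wild type the count of 6 lower genes was 5 to 7 under the other settings with all samples and 2 to 7 when 1 sample was left out. It was 4 without the 2 samples with the lowest actin ratio (chosen after seeing the data). The fit without the muscle samples, which leaves a single WT HDM sample, is not among these counts. Some of these counts include genes outside the 6, such as Ccdc39 among the 4. The replicate block gave 5, with Ift172 lost (adjusted p = 0.0516). Ift88 was called in 23 alternatives, Tekt4 in 20, Rsph1 in 19, and Ift172 and Rsph4a in 17 each. In KO the count of 1 lower gene was 2 with the filter at the median or median scaling, and 3 with the sets fitted separately or with the mean of all probe sets per gene. Higher genes in KO against WT after HDM, 1 in the reported setting, numbered 0 with no filter, median scaling, no intensity trend, the replicate block, without the muscle samples or without those with the lowest actin ratio, and 0 to 1 when 1 sample was left out. With 1 sample left out the median over members was -0.43 to -0.30 for HDM in WT, 0.04 to 0.22 for KO against WT after PBS and 0.07 to 0.21 for the difference of effects. The median of KO against WT after PBS was 0.04 without the muscle samples or without those with the lowest actin ratio. The cause of these changes was not tested. With 3 samples a group and dim probe sets such as Tekt2 or Spag6l, differences of the size of their standard errors could not be resolved.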

Other observations

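Probe sets of 1 member did not always move together. Dnali1, an inner dynein arm light chain, had a second probe set (1436126_at) at -1.49 ± 0.44 for HDM in KO (adjusted p = 0.0559, limma) and -0.77 ± 0.44 in WT, against -0.22 ± 0.13 and -0.19 ± 0.13 on its brightest one. For Ift81 the other probe sets were at -0.03 and 0.08 in WT, against -0.35 ± 0.19 on the brightest, and none was called. For Dnaaf1 the second probe set was at 0.19 ± 0.21 in WT, against -0.19 ± 0.22.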
